A study of Aedes aegypti with 5 samples.

Results

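The secreted salivary proteins of unknown function were described here in the salivary glands of female Aedes aegypti before and after a blood meal. On the gene array used, 51 probes belonged to the unknown function class. The 4 probes described as 30 kDa, 30.5 kDa, aegyptin or allergen were left out, which left 47 of the 433 gene probes. Females of the Higgs white eye strain that had never taken blood were starved for 16 h and fed on a BALB/c mouse until engorged. The 5 groups were unfed females, starved in the same way, and fed females dissected 1, 3, 24 or 48 hours after the meal (hours post feeding, hpf). Each fed group was 1 pool of glands from 10 mosquitoes, and how many unfed females were pooled was not stated in the labels or methods. Each group was hybridized to 3 arrays as technical replicates, so 15 arrays were used in all and every p-value compares RNA pools, not mosquitoes.

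Mosquito saliva is a mixture of proteins that keep host blood flowing and dampen the reaction of the skin. A large share of the secreted proteins has no known target and is recognised only by a signal peptide, a molecular mass or a relative in another blood-feeding fly. Stored saliva is discharged during the meal and replaced by the gland afterwards. Of the 47 probes, 11 were described by a molecular mass, 14 by conservation or similarity to a named protein, 2 as basic peptides, 1 as a mucin and 1 as glycine rich, and 18 carried no further word. No sequence of these proteins was used here, and none of the 47 identifiers was found in the RefSeq table.

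Spot brightness is given as raw intensity, which has a ceiling, or as normalized intensity. For the latter, the average of the empty spots was subtracted from each spot and the result was divided by that of a pair of reference spots, actin and ribosomal protein S5, averaged. The methods name a different reference, RpL5, but recomputation from the raw values gave the deposited ones with actin and S5. Per array, 121 to 162 gene probes lay above the empty spots by more than 2 SD and 33 to 64 were saturated, which means 60000 or more. The gland markers, long D7 proteins (AF420272 and M33157), alpha-glucosidase (M30442), amylase (L03637) and apyrase (L12389), were saturated on all 15 arrays, and the only muscle probe, myosin light chain (AE-377), was above the empty spots on 0. Of the hemocyte probes, a pair of prophenoloxidase activators was above on 4 and 8 arrays. Of the midgut probes, Large trypsin (AEA-876) was above on 14. The other midgut probes, both described as salivary, were above on 15. Of these, the chymotrypsin-like AE-226 was saturated on 7 arrays and the trypsin-like AE-191 on 15. Fat body and ovary genes were not matched by any probe description, and the part of other tissues in the results was not tested. The actin reference spot was 11823, 21650 and 42707 in raw intensity on the unfed arrays and 3906, 4189 and 6952 at 48 hpf, where it was above the empty spots on no array. The S5 spot was itself saturated on 7 arrays. With S5 alone as reference the ratios to unfed of all measured probes were multiplied by 0.801, 0.756, 0.740 and 0.732 at 1, 3, 24 and 48 hpf (medians), and with median scaling of each array by 0.713, 0.744, 0.738 and 0.774. A ratio a little above 1 in the deposited scale therefore lies below 1 in these others.

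The proteins of unknown function were a bright set, as were the other secreted classes. Of the 47 probes, 13 (27.7%) were saturated on all 15 arrays, compared with 30 of 433 (6.93%) on the whole array, 14 of 70 (20%) in the other secreted classes and 1 of 312 (0.321%) among housekeeping genes. Another 28 (59.6%) exceeded the empty spots on 2 or more arrays of some group without being saturated throughout. The last 6 were seen on at most 1 array of any group, 3 of them on none. In the other secreted classes 64.3% exceeded the empty spots in this way and 11.4% were above them on no array. On the whole array 56.1% of the probes were above the empty spots on no array, and among housekeeping genes 74.4%. The shares are a description of these arrays, and no test was made of them.

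**Figure D1:**
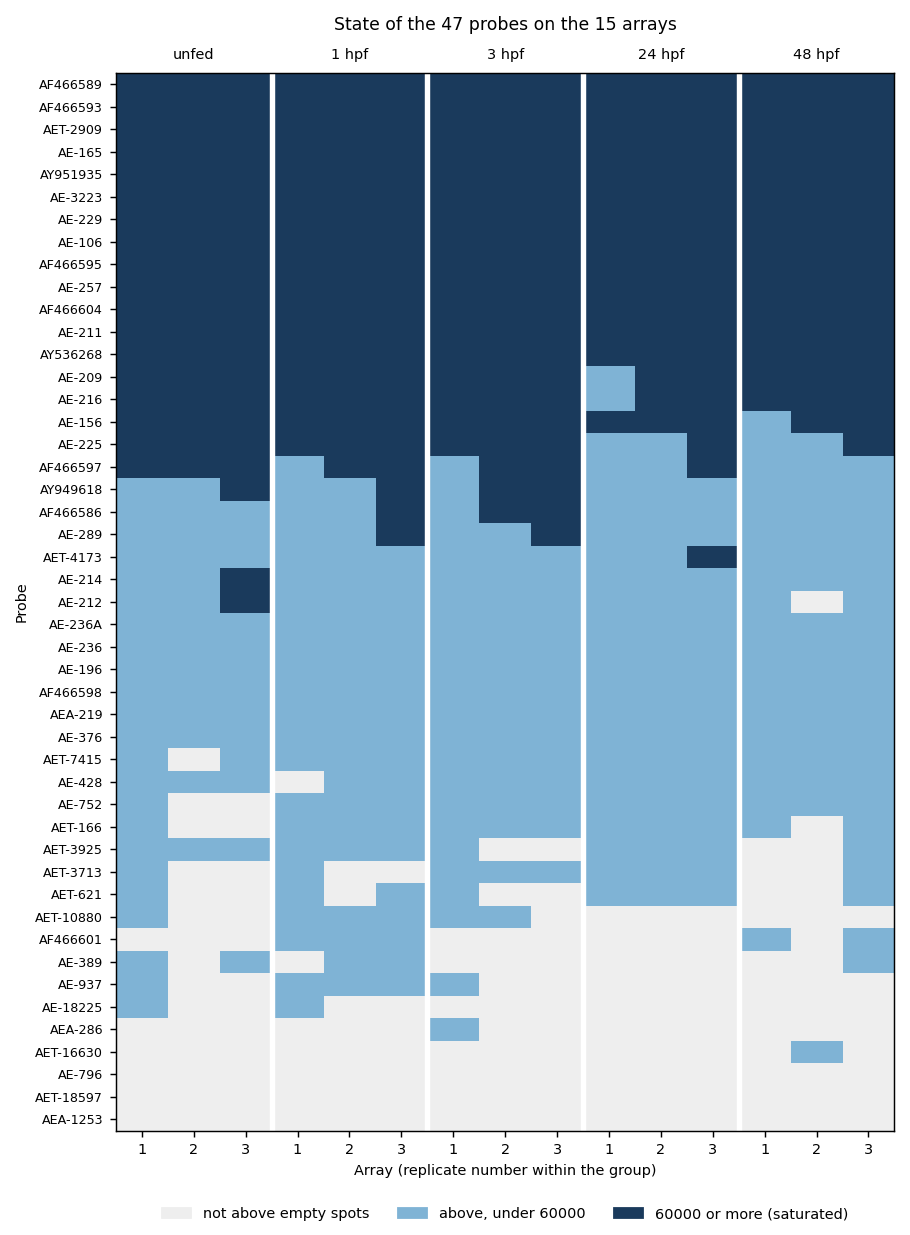
State of each of the 47 probes (rows) on each of the 15 arrays (columns, 3 per group): not above the empty spots, above them, or saturated at a raw intensity of 60000 or more. The 13 probes at the top were saturated on all 15 arrays, and the 3 at the bottom were above the empty spots on none.

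Among the always saturated probes, 8 of the 11 described by a molecular mass were found. They are AF466593 (56.5 kDa), AET-2909 (41 kDa), AE-106, AF466595 and AE-229 (34 kDa family), AF466604 (18.6 kDa), AY951935 (8.9 kDa) and AY536268 (8.7 kDa). The other 5 were AF466589, an antigen 5 member, AE-165, a salivary mucin, AE-3223, a peptide with histidine repeats, AE-257, a peptide with a WWW domain, and AE-211, basic peptide 4.2K-1. Antigen 5 proteins belong to the CAP superfamily, which is common in saliva and venom. Mucins are heavily glycosylated lubricating proteins. For these 13 no fold change can be measured. Their raw intensity gave ratios to unfed of 1.0, 1.0, 1.0 and 0.997 at 1, 3, 24 and 48 hpf (medians over the 30 always saturated probes), while the normalized ratios were 1.60, 1.27, 1.47 and 1.60. The normalized ratio of a saturated probe thus follows the reference spots and not its own RNA.

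The 34 kDa family, a group of mosquito salivary proteins, had 4 probes, of which 3 were saturated throughout. AEA-286, described as a truncated member, was above the empty spots on 1 of 15 arrays (3 hpf replicate 1). The antigen 5 relatives were also split. AF466601, a second antigen 5 member, was above on 5 arrays and the cysteine-rich venom-like protein AE-389 on 5, against 15 for AF466589.

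A further 5 probes were saturated on all unfed arrays and came off the ceiling on at least 1 fed array. The raw intensity of AF466597, a secreted protein with no further description, was 64931, 65125 and 64954 on the unfed arrays. It was 35705, 51508 and 61766 at 24 hpf, and 28149, 41721 and 59190 at 48 hpf. Every 48 hpf array was thus under the ceiling and under every unfed array. At 1 and 3 hpf only replicate 1 fell below 60000, at 57964 and 59185. AE-225, a salivary peptide, gave 65146, 65208 and 64598 in raw intensity on the unfed arrays. Its values were 46358, 59449 and 63574 at 24 hpf and 29271, 51821 and 62065 at 48 hpf. The 1 and 3 hpf arrays of AE-225 were all saturated, from 62678 to 65277.

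The other 3 of these probes moved little. AE-156, a peptide with a basic tail, was off the ceiling on 48 hpf replicate 1 alone, at 54972. AE-209 (23.4 kDa, similar to a Culex salivary protein) and AE-216 were off it on 24 hpf replicate 1 alone, at 58733 and 58532. Because the unfed spots were saturated, the size of the fall of AF466597 and AE-225 is not known. For AE-225 the direction relative to the reference spots is not known either. In whole glands, here and below, fewer cells of a type and less RNA per cell cannot be told apart. The normalized ratios of AF466597 and AE-225, 0.964 and 1.07 at 48 hpf, set a saturated unfed level against a measured one. The lower bound of the decline was 1.03-fold for AF466597 and under 1 for AE-225. S5 was itself saturated on 2 unfed arrays, so this bound is not strict. The always saturated probes kept medians of 65167, 65304 and 64973 on the 3 arrays at 48 hpf, but spots at the ceiling cannot show whether an array was dimmer. The raw intensity of S5 was 58467, 64382 and 64191 on the unfed arrays and 39943, 57171 and 61697 at 48 hpf.

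**Figure D2:**
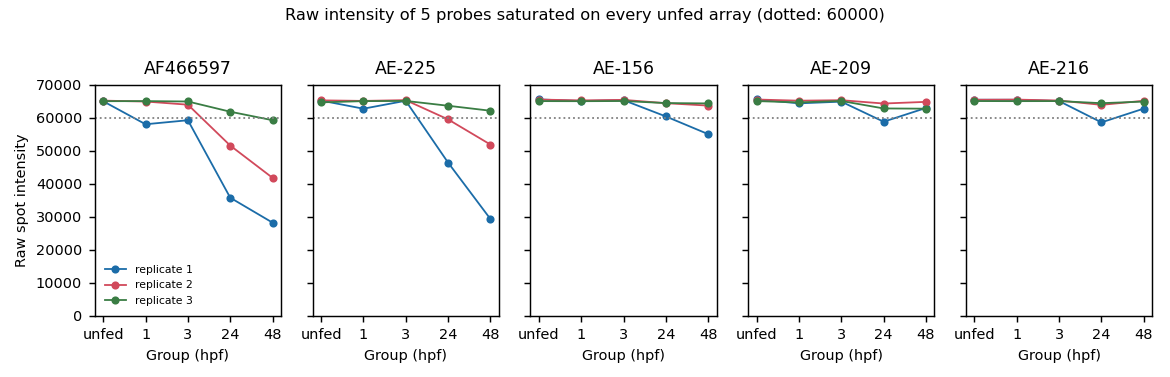
Raw spot intensity (vertical axis, from 0) on each array of the 5 probes that were saturated on every unfed array and not on every fed array, by group. AF466597 and AE-225 fell on every replicate number between 3 and 48 hpf, to 28149 and 29271 on replicate 1, while AE-156, AE-209 and AE-216 stayed near the ceiling, drawn at 60000.

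A probe counted as measured in a comparison when it exceeded the empty spots on 2 or more arrays of either group and was not saturated on all arrays of both. By this, 23, 21, 24 and 22 of the 47 probes were measured at 1, 3, 24 and 48 hpf. Of these, 6, 4, 4 and 3 passed through the fed group alone and 0, 2, 1 and 2 through the unfed group alone. For them the filter favoured a ratio on the side of that group, without fixing it. Over the 17, 15, 19 and 17 that passed in both groups the median ratio to unfed was 1.44, 1.22, 0.840 and 0.964, beside 1.25, 1.15, 0.953 and 0.915 for such probes of the whole array. Saturated arrays entered at their value. Where S5 was saturated on the same array, spot and reference were both capped, so such a mean is not a one-sided limit. Probes at least 2-fold of unfed numbered 5, 4, 2 and 1, beside 15.5%, 20%, 12.1% and 6.19% of all measured probes. Those at most 0.5-fold numbered 0, 3, 4 and 3, beside 7.27%, 10.9%, 19.4% and 23%. With S5 alone 1, 3, 7 and 7 members were at most 0.5-fold, beside 12.7%, 20%, 28.2% and 38.1% of all measured probes, and with median scaling also 1, 3, 7 and 7, beside 15.5%, 20%, 28.2% and 36.3%. Those at least 2-fold at the 4 times numbered 4, 2, 2 and 1 with S5 alone, beside 10%, 10.9%, 8.06% and 6.19%, and 2, 2, 1 and 1 with median scaling, beside 5.45%, 10%, 7.26% and 6.19%. These counts carry no test. The 5 at 1 hpf were AET-4173, AET-166, AF466601, AET-621 and AET-10880, and the 4 at 3 hpf were AET-166, AET-4173, AET-3713 and AF466586. At 24 hpf AET-4173 and AET-3713 passed the limit, and at 48 hpf AET-4173 alone. On the low side were AE-212, AET-3925 and AE-236 at 3 hpf, AE-212, AF466598, AET-3925 and AE-389 at 24 hpf, and AE-212, AET-3925 and AF466598 at 48 hpf. All named at 1 hpf but AET-4173 had passed the filter through the fed group alone. So had AET-166 and AET-3713 at 3 hpf and AET-3713 at 24 hpf. AET-3925 at 3 and 48 hpf and AE-389 at 24 hpf had passed through the unfed group alone. AF466601 at 1 hpf and AE-389 at 24 hpf were counted by their ratio of means, although 1 of their groups lay above the empty spots on no array and their bounds, 1.31-fold and 1.86-fold, were under 2.

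Single arrays moved these counts. Without unfed replicate 3, 11 probes passed 2-fold at 1 hpf and 7 at 3 hpf, and only 1 passed 0.5-fold at each of 3, 24 and 48 hpf. Without unfed replicate 2 the counts were 3 higher at 1 hpf and 7 lower at 24 hpf, and without unfed replicate 1 there was 1 lower at 1 hpf. Of the fed arrays, 1 hpf replicate 3 left 3 higher and 1 lower when removed. The count higher at 3 hpf was 7 without 3 hpf replicate 1 or 2, and the count lower there was 7 without 3 hpf replicate 3. At 24 hpf, leaving out replicate 1, 2 or 3 gave 1, 2 or 9 lower, and 4 or 1 higher without replicate 2 or 3. At 48 hpf 8 were lower without replicate 3. Replicate 3 had the highest raw intensity of its group for 23, 24, 24, 27 and 26 of the 28 measured probes in the unfed, 1, 3, 24 and 48 hpf groups.

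limma called a probe when its adjusted p (Benjamini-Hochberg over 432 probes) was below 0.05. Without a replicate term it called 1, 0, 1 and 1 of the 47 at 1, 3, 24 and 48 hpf, beside 0.926%, 0.694%, 0.926% and 0.231% of all probes, and each call was AET-4173, higher. For the 0 at 3 hpf, 6 of the 47 had an unadjusted p below 0.05, and the methods' t-test gave 4 unadjusted and 0 after adjustment. Same-numbered arrays of different groups deviated together, so the replicate number was also fitted as a block. With the block, 6, 6, 3 and 2 measured members were higher at 1, 3, 24 and 48 hpf, beside 21.1%, 19.3%, 14.6% and 12.5% of all measured probes. Among them, AE-209 and AE-216 at 24 hpf and AE-156 at 48 hpf were saturated on every unfed array and hold no measured change. That left AET-4173 alone at these times. Lower were 0, 4, 6 and 6, beside 10.1%, 16.5%, 22% and 27.7%. The balance turned with the reference. With S5 alone the block called 3, 3, 1 and 1 members higher, beside 11.9%, 8.26%, 4.07% and 4.46%, and 2, 4, 8 and 8 lower, beside 8.26%, 17.4%, 30.9% and 35.7%. With median scaling 2, 3, 1 and 1 were higher, beside 7.34%, 7.34%, 4.07% and 5.36%, and 3, 6, 8 and 8 lower, beside 15.6%, 19.3%, 32.5% and 33%. No test was made of the members' share against that of the array. Leaving out 1 hpf replicate 2 gave 3 calls without the block at 1 hpf, and leaving out 3 hpf replicate 1 or unfed replicate 3 gave 1 at 3 hpf.

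**Figure D3:**
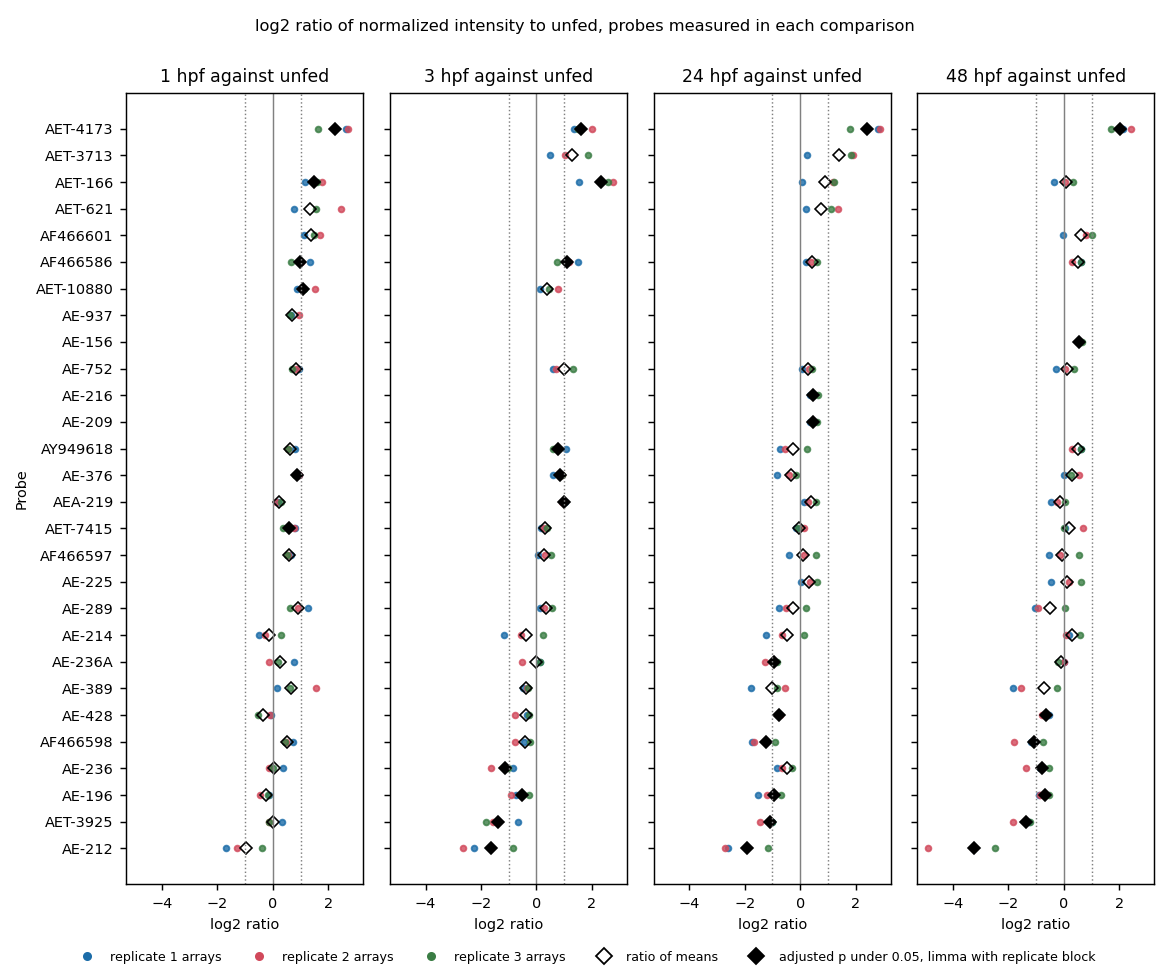
log2 ratio of normalized intensity to unfed (horizontal axis) of each of the probes measured in the 4 comparisons. Circles are ratios of same-numbered arrays, diamonds are ratios of group means, filled where limma with the replicate block gave an adjusted p below 0.05, and dotted lines mark 2-fold and 0.5-fold. AET-4173 lay right of 2-fold at all 4 times, and AE-212 left of 0.5-fold from 3 hpf on.

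AET-4173, a glycine rich salivary peptide, was higher at each fed time. Its normalized intensity was 0.258, 0.259 and 0.527 on the unfed arrays. After feeding it was 1.62, 1.71 and 1.62 at 1 hpf, 0.667, 1.03 and 1.50 at 3 hpf, 1.81, 1.91 and 1.85 at 24 hpf, and 1.12, 1.38 and 1.71 at 48 hpf. Every fed array lay above every unfed array, and the 3 hpf arrays lay below all those at 1 and 24 hpf. The raw intensity also rose, from 11072, 13465 and 30513 unfed to 32266, 48916 and 59632 at 1 hpf. The ratios of means to unfed were 4.73, 3.06, 5.33 and 4.03 at 1, 3, 24 and 48 hpf. After normexp correction by the local background and quantile normalization they were 2.99, 2.50, 3.35 and 2.81. This setting gave ratios at 1 hpf of 0.569 for AF466589 and 2.86 for AE-106, both saturated on every array. Its ratios, here and below, can thus differ from 1 where the raw spot did not change. In limma the log2 differences of AET-4173 were 2.33 ± 0.32 (SE, n = 3 arrays a group) at 1 hpf, with an adjusted p of 0.00415. They were 2.50 and 2.08 at 24 and 48 hpf, with adjusted p-values of 0.00223 and 0.0325. The 3 hpf difference, 1.62, had an adjusted p of 0.0566. With the replicate block all 4 times were called, with adjusted p-values of 0.00152, 0.00816, 0.00118 and 0.0025.

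The limma calls of AET-4173 without the block depended on the scaling. With S5 alone the adjusted p was 0.0594 at 1 hpf and 0.228 at 48 hpf, and with median scaling it was 0.111, 0.0523 and 0.145 at 1, 24 and 48 hpf. With the block, the calls at all 4 times held under both scalings, the highest adjusted p being 0.0343 with S5 alone and 0.0353 with median scaling, both at 3 hpf. Leaving out 48 hpf replicate 2 or 3, or unfed replicate 1 or 2, brought the 48 hpf adjusted p to 0.172, 0.107, 0.105 or 0.211. On 24 hpf replicate 3 the spot was saturated and S5 was too, so the 24 hpf mean is not a one-sided limit.

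The averages that the authors deposited for AET-4173 were not all the means of its 3 arrays. For the unfed group the deposited average was 0.53, which equals array 3 to 2 decimals, where the mean of the 3 arrays was 0.348. For 3 hpf it was 0.67, which equals array 1, where the mean was 1.06. The ratios to unfed in the deposited value table were 3.11, 1.26, 3.51 and 4.91 at 1, 3, 24 and 48 hpf. The first 3 are the quotients of the deposited averages, but the quotient at 48 hpf is 2.65, and the ratio of the means of 3 arrays there was 4.03. With the value table AET-4173 lay under 2-fold at 3 hpf. The ratios given above use all 3 arrays of each group, and the cause of the difference was not tested.

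Several other members were brightest at 1 or 3 hpf. AET-166, described as similar to a hemolymph protein, had the largest ratio among them. Its normalized intensity was 0.128, 0.0694 and 0.166 unfed, 0.286, 0.236 and 0.498 at 1 hpf, 0.375, 0.473 and 1.00 at 3 hpf, 0.133, 0.160 and 0.387 at 24 hpf, and 0.100, 0.0722 and 0.211 at 48 hpf. All arrays at 1 and 3 hpf lay above all unfed arrays, and those at 24 and 48 hpf overlapped them. On the unfed arrays the spot was above the empty spots on 1 of 3. The ratios were 2.80, 5.08, 1.87 and 1.05. limma without the block gave adjusted p-values of 0.287 and 0.150 at 1 and 3 hpf, and with it 0.00276 and 0.00083. Both block calls held with S5 alone (0.00743 and 0.000503) and with median scaling (0.0209 and 0.000342). From 3 to 24 hpf the ratio was 0.368, lower on every replicate number, with an adjusted p of 0.00461 under the block.

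AEA-219, a salivary peptide, was highest at 3 hpf on every replicate number. The normalized intensity was 0.330, 0.494 and 0.821 unfed, 0.380, 0.527 and 1.01 at 1 hpf, and 0.674, 0.933 and 1.63 at 3 hpf. It was 0.367, 0.605 and 1.20 at 24 hpf and 0.240, 0.415 and 0.854 at 48 hpf. The groups overlapped, but the ratios of same-numbered arrays at 3 hpf were close together, at 2.04, 1.89 and 1.99. The ratio of means was 1.97, with an adjusted p of 0.841 without the block and 0.00116 with it, which held with S5 alone (0.00319) and median scaling (0.00108). After normexp and quantile normalization the ratio at 3 hpf was 3.12. The steps of AEA-219 from 1 to 3, 3 to 24 and 24 to 48 hpf, with ratios of 1.69, 0.672 and 0.694, were each called under the block (adjusted p = 0.00604, 0.0087 and 0.0325). After normexp and quantile normalization the ratios of these steps were 6.65, 0.0877 and 3.79, so that the last pointed the other way, with a log2 difference of 1.47 in limma.

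AF466586, a secreted protein with no further description, was higher at 1 and 3 hpf under the block. On the unfed arrays it was 0.622, 0.818 and 1.06 in normalized intensity, against 1.58, 1.64 and 1.68 at 1 hpf, and 1.75, 1.83 and 1.79 at 3 hpf. At 24 and 48 hpf it was 0.727 to 1.63. All arrays at 1 and 3 hpf were above the unfed arrays, and 1 of 3 at 1 hpf and 2 of 3 at 3 hpf were saturated. The ratios at 1 and 3 hpf were 1.96 and 2.15. S5 was saturated on the same arrays as AF466586, so these ratios are not one-sided limits. The block adjusted p-values were 0.00918 and 0.0148, and both calls were lost with S5 alone (0.0798 and 0.0851) and with median scaling (0.271 and 0.0608).

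The 7.8 kDa protein AY949618 was also higher at 3 hpf under the block. Its unfed arrays were at 0.894, 1.14 and 1.17 in normalized intensity, and those at 3 hpf at 1.87, 1.90 and 1.78, of which 2 were saturated. At 24 hpf they were 0.544, 0.778 and 1.37, and at 48 hpf 1.38, 1.42 and 1.80. The 24 hpf arrays were below all 3 hpf arrays, and the 48 hpf arrays were above all 24 hpf arrays. Of the unfed arrays 1 was saturated too, so its ratio to unfed at 3 hpf, 1.73, sets ceiling values against each other in part (block adjusted p = 0.0488, and 0.588 with S5 alone). The step from 3 to 24 hpf, with a ratio of 0.486 that holds the saturated 3 hpf arrays, was called under the block at 0.0257. It stayed called with S5 alone (0.0183) and median scaling (0.0166).

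AE-376, a salivary peptide, was at 0.213, 0.219 and 0.484 in normalized intensity on the unfed arrays, at 0.406, 0.420 and 0.832 at 1 hpf and at 0.319, 0.416 and 0.918 at 3 hpf. It fell to 0.120, 0.166 and 0.439 at 24 hpf and was 0.215, 0.319 and 0.584 at 48 hpf. Each replicate number was higher than its unfed array at 1 and 3 hpf and lower at 24 hpf, although the groups overlapped. The ratios at 1 and 3 hpf were 1.81 and 1.80. The block gave adjusted p-values of 0.00329 and 0.0148, which became 0.0384 and 0.093 with S5 alone and 0.157 and 0.106 with median scaling. The fall from 3 to 24 hpf (ratio 0.438, block adjusted p = 0.0042) and the rise from 24 to 48 hpf (ratio 1.54, block adjusted p = 0.0481) were called under the block in all of these scalings.

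Dimmer probes were higher at 1 hpf. AET-10880, a secreted peptide conserved in Diptera, gave 0.114, 0.0491 and 0.120 unfed and 0.209, 0.140 and 0.259 at 1 hpf, above the empty spots on 1 and 3 arrays. It was above them on no array at 24 or 48 hpf. Its ratio at 1 hpf was 2.15 (block adjusted p = 0.0114, 0.103 with S5 alone and 0.744 with median scaling), and 1.14 after normexp and quantile normalization. AET-7415, a salivary protein, had a ratio of 1.49 at 1 hpf (block adjusted p = 0.0407, and 0.468 with S5 alone). The antigen 5 member AF466601 was above the empty spots on no unfed array and on all 3 at 1 hpf. Its normalized intensity there was 0.199, 0.108 and 0.262, at least 1.31-fold higher than unfed in the deposited scale alone. That bound was not computed with the other references, so it is no minimum rise under them. The ratio of means of AF466601, 2.61 (2.14 with S5 alone and 1.89 with median scaling), is not a measured fold. Neither limma fit called it (adjusted p = 0.307, and 0.111 with the block).

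AET-3713 and AET-621 passed 2-fold without a call. AET-3713, a secreted protein with no further description, was 0.154, 0.0664 and 0.142 unfed, 0.217, 0.137 and 0.518 at 3 hpf, and 0.184, 0.252 and 0.512 at 24 hpf. The unfed probe was above the empty spots on 1 array and the 24 hpf probe on 3, with no overlap at 24 hpf. Its ratios were 2.40 and 2.61 at 3 and 24 hpf, with block adjusted p-values of 0.230 and 0.118, and after normexp and quantile normalization they were 0.920 and 0.813. AET-621, conserved with Drosophila, had a ratio of 2.50 at 1 hpf (block adjusted p = 0.119), and 0.728 after normexp and quantile normalization.

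**Figure D4:**
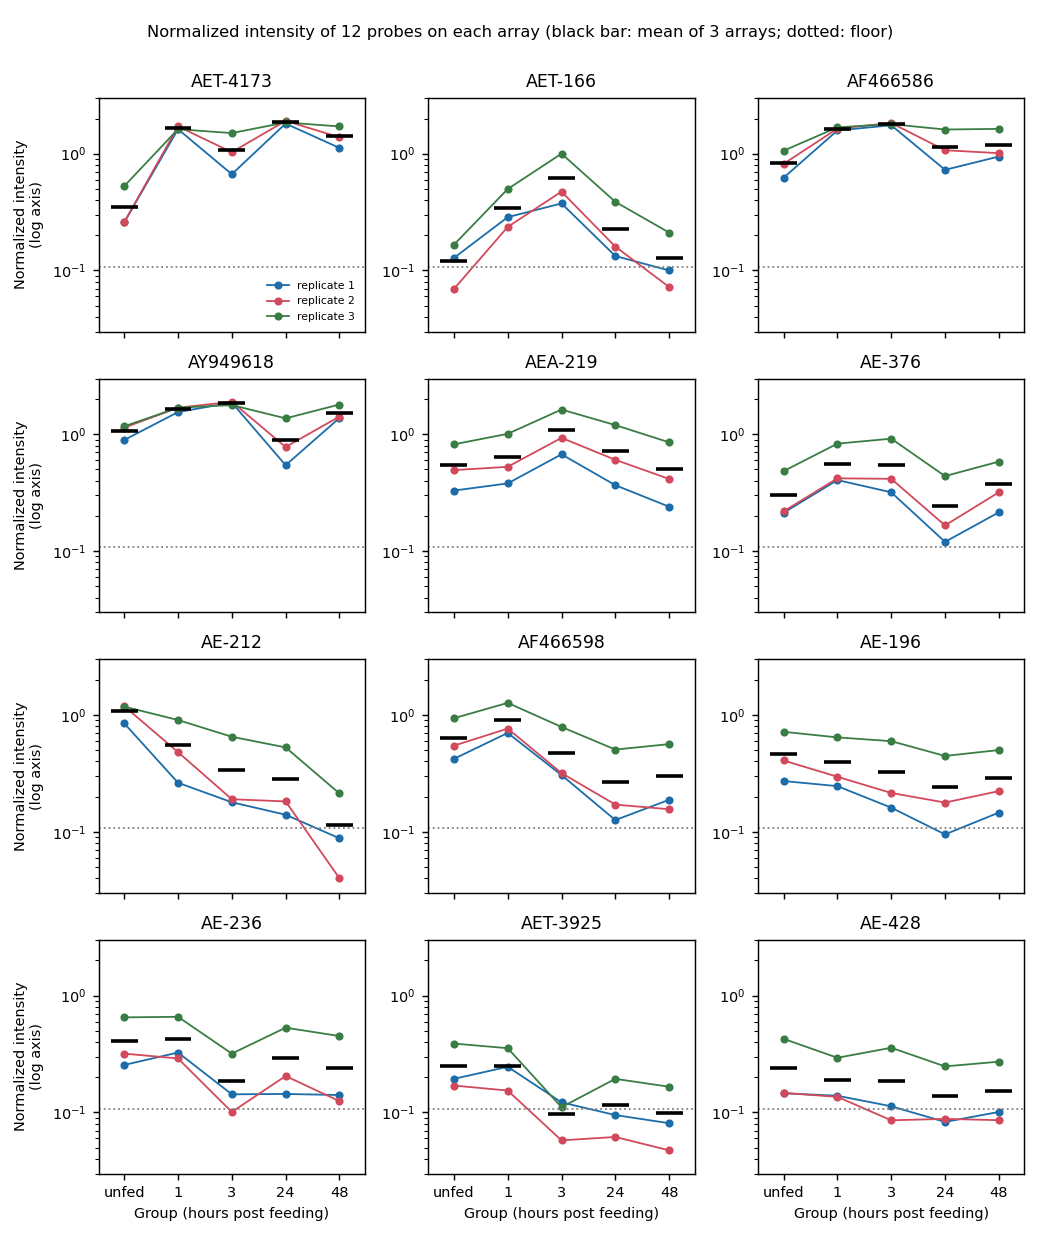
Normalized intensity (vertical log axis) of 12 probes on each array, by group. Lines join arrays of the same replicate number, black bars are means of 3 arrays and the dotted line is the floor of 0.108 used in limma. AET-166 and AEA-219 peaked at 3 hpf, AE-376 fell between 3 and 24 hpf, and AE-212 was lowest at 48 hpf on all 3 replicate numbers.

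AE-212, a salivary secreted protein with no further description, was lower from 3 hpf on. Its normalized intensity was 0.849, 1.19 and 1.18 on the unfed arrays, of which replicate 3 was saturated. It was 0.263, 0.481 and 0.906 at 1 hpf, 0.179, 0.190 and 0.651 at 3 hpf, 0.140, 0.182 and 0.528 at 24 hpf, and 0.0880, 0.0400 and 0.213 at 48 hpf. From 3 hpf on every array was below every unfed array, and at 48 hpf only 2 of 3 were above the empty spots. The raw intensity went from 30245, 50480 and 62146 unfed to 4890, 4432 and 9909 at 48 hpf. The ratios were 0.513, 0.317, 0.264 and 0.106 at 1, 3, 24 and 48 hpf. On the saturated unfed array S5 was saturated too, so these ratios are not one-sided limits. Without the block limma gave adjusted p-values of 0.637, 0.386, 0.252 and 0.123. With it they were 0.0543, 0.0145, 0.00519 and 0.0025, and the last 3 remained below 0.05 with S5 alone and with median scaling, where 1 hpf also passed (0.0384 and 0.0262). None of the steps between consecutive fed times was called (block adjusted p = 0.255, 1.0 and 0.409).

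AF466598, a secreted protein with no further description, was 0.421, 0.546 and 0.938 unfed. It was 0.702, 0.765 and 1.27 at 1 hpf, 0.306, 0.318 and 0.790 at 3 hpf, 0.126, 0.171 and 0.506 at 24 hpf, and 0.188, 0.156 and 0.563 at 48 hpf. Each replicate number was higher than unfed at 1 hpf and lower from 3 hpf on, and the groups overlapped. The ratios were 1.44, 0.742, 0.421 and 0.475. That at 1 hpf was 1.14 with S5 alone and 1.01 with median scaling, and was not called under the block (adjusted p = 0.205 in the deposited scale). The raw intensity of AF466598 at 1 hpf was lower than unfed on each replicate number. At 24 and 48 hpf the adjusted p was 0.468 and 0.586 without the block and 0.00557 and 0.00593 with it, and the block calls held under both other scalings.

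AET-3925, a secreted peptide, had a ratio to unfed of 1.00 at 1 hpf and was lower afterwards. The arrays gave normalized intensities of 0.194, 0.170 and 0.389 unfed and 0.246, 0.154 and 0.355 at 1 hpf. It was 0.122, 0.0577 and 0.111 at 3 hpf, 0.0950, 0.0617 and 0.194 at 24 hpf, and 0.0809, 0.0474 and 0.166 at 48 hpf. The 3 and 48 hpf arrays lay below all unfed arrays, and 1 of 3 in each was above the empty spots. The ratios at 3, 24 and 48 hpf were 0.385, 0.465 and 0.391. The block gave adjusted p-values of 0.0325, 0.0406 and 0.0269, and only that at 24 hpf was lost with S5 alone (0.0503). After normexp and quantile normalization the 24 hpf ratio was 0.725.

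AE-196, similar to the Anopheles gambiae salivary protein gSG8, declined on each replicate number. In normalized intensity it was 0.272, 0.408 and 0.718 unfed, 0.161, 0.215 and 0.597 at 3 hpf, 0.0950, 0.178 and 0.446 at 24 hpf, and 0.146, 0.223 and 0.501 at 48 hpf. The groups overlapped at every time. The ratios were 0.848, 0.697, 0.514 and 0.623 at 1, 3, 24 and 48 hpf, and the last was 0.312 after normexp and quantile normalization. With the block the adjusted p was 0.412, 0.0307, 0.0025 and 0.00518, and without it 0.800 or higher. The last 3 were also below 0.05 under both other scalings, where 1 hpf passed too (0.0199 and 0.00356).

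AE-236 and AE-236A share the description of a family known from blood-feeding Diptera, and without their sequences it cannot be said whether the probes bind the same RNA. AE-236 was 0.255, 0.319 and 0.652 in normalized intensity unfed, 0.143, 0.101 and 0.319 at 3 hpf and 0.141, 0.125 and 0.451 at 48 hpf. Its ratios were 1.04, 0.459, 0.718 and 0.585, called lower under the block at 3 and 48 hpf (adjusted p = 0.0145 and 0.0145). AE-236A was 0.197, 0.211 and 0.423 unfed, 0.104, 0.0881 and 0.238 at 24 hpf, and 0.197, 0.211 and 0.364 at 48 hpf. Its ratios were 1.21, 0.992, 0.517 and 0.929, called lower under the block at 24 hpf alone (adjusted p = 0.0154), where the ratio was 0.804 after normexp and quantile normalization. The difference between the pair of probes was not tested. The calls held with S5 alone and with median scaling, where AE-236 was also lower at 24 hpf (0.011 and 0.00511).

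AE-428, a salivary peptide, was lower at 24 and 48 hpf. The normalized intensity was 0.146, 0.147 and 0.427 unfed, 0.0830, 0.0881 and 0.248 at 24 hpf, and 0.101, 0.0859 and 0.272 at 48 hpf. The ratios at 24 and 48 hpf were 0.583 and 0.638, with block adjusted p-values of 0.00942 and 0.0148. In the fit without the block the 48 hpf log2 difference went from -0.51 to 0.00339 when unfed replicate 3 was left out.

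The remaining measured probes had no block call from their own change. AE-289 (ratios of 1.90, 1.27, 0.839 and 0.701 at 1, 3, 24 and 48 hpf) and the proline rich peptide AE-214 (0.912, 0.766, 0.726 and 1.23) were bright. AE-289 was above all unfed arrays at 1 hpf, and AE-214 at 48 hpf, where it was 1.34, 1.34 and 1.76 against 1.16, 1.28 and 1.18. The raw intensity of AE-214 was lower there on every replicate number, at 28241, 40031 and 57873 against 40357, 54162 and 62085. The last of these unfed arrays was saturated. In median scaling the ratio of AE-214 at 48 hpf was 1.00. AE-752, conserved with Anopheles, had ratios of 1.77, 1.97, 1.23 and 1.08, and AE-937 one of 1.61 at 1 hpf. AE-937 was above the empty spots on no array at 24 and 48 hpf. AE-389, the venom-like protein, was above on 2 unfed arrays and on none at 3 or 24 hpf, with no call. Its bounds, 1.15-fold and 1.86-fold lower, had the dimmest unfed array (0.0555) raised to the floor, so they are not minimum changes. At 24 hpf the log2 difference in limma was -0.344, and the ratio after normexp and quantile normalization was 0.886. The block also called AE-209 and AE-216 higher at 24 hpf and AE-156 at 48 hpf (normalized ratios of 1.38, 1.39 and 1.47). These were saturated when unfed and their raw intensity did not rise, so the calls hold no measured change. They were lost with S5 alone. With that reference the block also called AE-214 and AE-376 lower at 24 hpf and AE-289 and AEA-219 lower at 48 hpf, and all but AE-214 were called with median scaling as well. After normexp and quantile normalization AE-376 at 24 hpf and AEA-219 at 48 hpf lay on the other side of 1, at 1.05 and 1.04.

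Between consecutive fed times limma without the block called 0 of the 47 at each of 3 steps, beside 0.0%, 0.231% and 0.0% of all probes. At an unadjusted p below 0.05 there were 2, 4 and 1 from 1 to 3, 3 to 24 and 24 to 48 hpf, and the methods' t-test gave 2, 2 and 1 unadjusted and 0 adjusted. Leaving out 24 hpf replicate 3 gave 1 call at each of the last 2 steps. With the block, the step from 1 to 3 hpf had 1 member higher (AEA-219) and 1 lower (AE-236), beside 3.48% and 4.35% of all measured probes. AE-236 had a ratio of 0.441 there (adjusted p = 0.018). From 3 to 24 hpf 0 were higher and 4 lower (AET-166, AEA-219, AE-376 and AY949618), beside 3.28% and 12.3%. From 24 to 48 hpf 1 was higher (AE-376) and 1 lower (AEA-219), beside 4.10% and 4.92%. All 4 that fell from 3 to 24 hpf had been called higher than unfed at 3 hpf, a comparison that shares the 3 hpf arrays.

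By description, the measured members were mostly conserved proteins and those with no further word. Of the 14 conserved or similar members, 9 were measured at 1 hpf and 7 at each later time. With the block 2 of them were higher at 1 hpf, 1 was higher and 2 lower at 3 hpf, and 2 were lower at each of 24 and 48 hpf. Of the 18 with no further word, 12 were measured at 1, 3 and 48 hpf and 14 at 24 hpf. With the block 3 were higher at 1 hpf, 3 higher and 2 lower at 3 hpf, 1 higher (AE-216, saturated when unfed) and 4 lower at 24 hpf, and 4 lower at 48 hpf. The molecular mass list had 1 measured member, AY949618, at all times but 24 hpf, where AE-209 was added. The mucin and 1 of the 2 basic peptides were saturated on all arrays.

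The 6 remaining members gave no ratio. AE-796, with the PAN/apple domains found in a leech anti-platelet protein, AET-18597, conserved in Diptera, and AEA-1253, similar to insulin-like growth factor, were above the empty spots on no array. AE-18225, conserved in Diptera, was above on 2 arrays, and AEA-286 and AET-16630 on 1 each. For the first 3 RNA was not detectable over the empty spots at this sensitivity.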

How the data were processed

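Total RNA of pooled glands was amplified, biotin labelled and hybridized to custom oligonucleotide arrays. The authors deposited raw spot intensity and a report sheet of normalized intensity with group averages, and recomputation from the raw values differed by at most 0.000129. The score values of the deposited series matrix are ratios to unfed (column medians of 1.0, 1.245, 1.165, 0.985 and 0.825), used as an alternative. Lists of the authors' ratios and p-values were not used. Values were floored at 0.1077, taken to log2 and fitted over 5 groups with limma 3.58.1 in R 4.3.3 (7 contrasts, moderated t-statistics, 432 probes, S5 left out), which was tested on simulated data. Probes at the floor on every array were kept, with a negligible SE (5.06e-16 for AET-18597 at 1 hpf). The moderation therefore had little effect. The replicate numbers paired the arrays: over 168 probes the 30 pairs of same-numbered arrays correlated at 0.351 to 0.824 in their deviations from group means. Bounds ("at least") set the brighter group against the lowest signals above the empty spots, or a saturated group against a measured one. Values of the brighter group under the floor were raised to it. All bounds were computed in the deposited scale alone. Every member above the empty spots on 2 arrays of a group was named, and the others were named without a fold. The members and lists were chosen with earlier results of these data known. Alternatives were other references and normalizations, filters, floors, the methods' t-test and left-out arrays, and the fits of the block with other scalings or over measured probes were added after the data were seen. The number of arrays limits the precision.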

Additional observations from a re-analysis of the deposited data

How the results depend on the processing

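Saturation, dim spots and the choice of reference limited these results, as did the single pool per group. Under S5 alone, 1 probe was at most 0.5-fold at 1 hpf, 7 at 24 hpf and 7 at 48 hpf, 2 were at least 2-fold at 3 hpf, and limma called 0 at 1 and 48 hpf. Median scaling gave 2, 2 and 1 at least 2-fold at 1, 3 and 24 hpf, 1, 7 and 7 at most 0.5-fold at 1, 24 and 48 hpf, and 0 limma calls at 1, 24 and 48 hpf. Normexp with quantile normalization gave 3 and 2 at least 2-fold at 1 and 48 hpf, 2, 2 and 5 at most 0.5-fold at 1, 24 and 48 hpf, and 0 and 1 limma calls at 1 and 3 hpf. With no filter, 2 were at least 2-fold and 9 at most 0.5-fold at 48 hpf, where dim probes entered. Requiring every array of a group to exceed the empty spots, or using the series matrix, kept each count within 1.5 times.

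With the replicate block limma called 22, 23, 23 and 23 members at 1, 3, 24 and 48 hpf, and 2, 4 and 2 at the steps from 1 to 3, 3 to 24 and 24 to 48 hpf. Over measured probes these were 6, 10, 9 and 8, and 2, 4 and 2. The calls outside them included probes saturated on all arrays of both groups, such as AF466589 at 1 hpf (block adjusted p = 0.00276). Such calls follow the reference spots and hold no measured change. The block with S5 alone gave 5, 7, 9 and 9, and 4, 5 and 2, and the block with median scaling gave 5, 9, 9 and 9, and 4, 5 and 3. A floor of 0.0539 gave 1 call at 3 hpf, and a fit of only the probes above the empty spots gave 2 at each of 3, 24 and 48 hpf. The methods' t-test gave 4, 4, 2 and 3 unadjusted to unfed and 2, 2 and 1 at the steps, and after Benjamini-Hochberg 0 at 48 hpf.

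Leaving out 1 array gave 3 to 11, 3 to 7, 1 to 4 and 1 to 1 members at least 2-fold at 1, 3, 24 and 48 hpf, and 0 to 1, 1 to 7, 1 to 9 and 1 to 8 at most 0.5-fold. The limma counts ranged over 1 to 3, 0 to 1, 1 to 1 and 0 to 1 against unfed, and 0 to 0, 0 to 1 and 0 to 1 at the steps. Of the probes called with the deposited reference, with or without the block, reversals in limma were seen for AE-428 at 48 hpf without unfed replicate 3 (log2 difference of 0.00339, with a range of -0.96 to 0.00339 over the arrays left out) and for AEA-219 from 24 to 48 hpf with normexp and quantile (1.47). Of the probes called only under the block with another reference, AE-376 at 24 hpf and AEA-219 at 48 hpf against unfed and AF466598 from 3 to 24 hpf had ratios of 1.05, 1.04 and 1.16 with normexp and quantile, against 0.791, 0.917 and 0.568. The cause was not tested in any of these.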

Other observations

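The group averages in the deposited report sheet were set against the means of its own array columns. Over the whole array, the average differed from the mean of 3 arrays by more than 0.001 for 5 of the probes spotted once, of which AET-4173 was the only secreted protein of unknown function. In 4 of these probes, 7 averages were written to 2 decimals and equalled the value of 1 array. The 4 descriptions are glycine rich peptide (AET-4173), serine protease (AE-782), an angiopoietin-like protein variant (AE-154) and mucin-like peritrophin (AE-466). Transcripts named as the first, second and last of these were among those chosen in the methods for real-time RT-PCR, whereas the angiopoietin-like protein chosen there is not the variant. For the serine protease the match is by name only. The record number of AE-782 differs from the one chosen, and the array held several serine proteases. How the averages came to be entered was not tested. Values in the report rest on the array columns, which follow from the raw intensities.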
